A study of Homo sapiens with 12 samples.

Results

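A set of 9 genes that define and serve the thyroid follicular cell was followed in a papillary thyroid carcinoma cell line and in 3 clones of it with 1 disrupted allele of DICER1. They are the transcription factors PAX8, NKX2-1, FOXE1 and HHEX, the hormone precursor thyroglobulin (TG), the thyrotropin receptor (TSHR), the sodium iodide symporter (SLC5A5), and the deiodinases DIO1 and DIO2. The members were taken by gene name, 9 of the 58302 genes in the deposited table, and all 9 were found there.

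RNA was sequenced from 12 libraries, 3 for each of 4 lines. TPC1, wild type at DICER1, is an established line from a papillary thyroid carcinoma. D11, WB1 and TD5 are Dicer1 (+/−) lines made from TPC1 with CRISPR/Cas9 and a guide to exon 11, each grown from 1 cell in 1 well and therefore each 1 clone. All lines were grown in the same serum-containing medium, and none received a further treatment in these libraries. The 3 clones share the same TPC1 libraries as controls, and in these libraries the DICER1 genotype and the growth from 1 cell cannot be told apart. The methods state that experiments were repeated independently, but neither they nor the labels say which libraries came from separate cultures, so p-values measure the spread between libraries, which may be technical.

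The deposited values are reads per gene scaled to 20000000 per library, called scaled reads here. From the steps between values, the libraries held an estimated 12700000 to 21020000 reads, and 3 reads, used as a floor for counting error only, were worth 2.85 to 4.72 scaled reads. DICER1, the edited gene, which encodes the enzyme that cuts miRNA precursors, had 1101 to 1360 scaled reads in TPC1, 977 to 1093 in D11, 815 to 939 in WB1 and 627 to 809 in TD5. Its log2 difference from TPC1 was −0.77 in TD5 (limma adjusted p = 9.02e-05) and −0.43 in WB1 (adjusted p = 0.00404). In D11 it was −0.19 (adjusted p = 0.138), and that value depended on the setting. Over the alternatives it ranged from −0.41 with GC correction (adjusted p = 0.000134) to −0.10 without TPC1 replicate 1 (adjusted p = 0.471), and the adjusted p was also under 0.05 with length correction (0.00527) and with median-of-ratios scaling (0.0455).

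In the thyroid, PAX8, NKX2-1, FOXE1 and HHEX are made together in the embryonic thyroid bud and remain on in the adult follicular cell, where they act on the promoters of the hormone synthesis genes. Iodide enters the cell through SLC5A5, is coupled to tyrosines of thyroglobulin with hydrogen peroxide from the DUOX enzymes, and the hormone is released by proteolysis of thyroglobulin, all under thyrotropin acting through TSHR and cyclic AMP. Deiodinases then activate the hormone, and tumour cells kept in culture often lose much of this programme.

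The promoters of 4 members are shown because these genes span the range of levels found, from high (PAX8) through intermediate (FOXE1) and a few reads (DIO1) to none (TSHR). Each is the 300 bases from 250 before to 50 after a RefSeq start on GRCh38.p14, written 5′ to 3′ along the gene, with every CG in capitals.
PAX8 promoter, chr2:113278872-113279171, minus strand: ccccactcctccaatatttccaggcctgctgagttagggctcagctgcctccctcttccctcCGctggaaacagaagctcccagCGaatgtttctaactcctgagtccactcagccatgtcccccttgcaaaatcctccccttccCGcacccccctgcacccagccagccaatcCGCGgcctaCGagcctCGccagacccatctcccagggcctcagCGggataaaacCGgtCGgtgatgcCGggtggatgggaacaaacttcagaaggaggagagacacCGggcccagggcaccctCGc
FOXE1 promoter, chr9:97852976-97853275, plus strand: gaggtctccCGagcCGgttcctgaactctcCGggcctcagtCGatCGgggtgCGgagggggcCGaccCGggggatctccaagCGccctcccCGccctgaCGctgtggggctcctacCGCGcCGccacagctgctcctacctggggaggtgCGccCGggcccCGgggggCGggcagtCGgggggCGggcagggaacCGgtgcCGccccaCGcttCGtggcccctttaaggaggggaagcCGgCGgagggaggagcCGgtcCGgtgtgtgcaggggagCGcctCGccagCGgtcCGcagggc
TSHR promoter, chr14:80955371-80955670, plus strand: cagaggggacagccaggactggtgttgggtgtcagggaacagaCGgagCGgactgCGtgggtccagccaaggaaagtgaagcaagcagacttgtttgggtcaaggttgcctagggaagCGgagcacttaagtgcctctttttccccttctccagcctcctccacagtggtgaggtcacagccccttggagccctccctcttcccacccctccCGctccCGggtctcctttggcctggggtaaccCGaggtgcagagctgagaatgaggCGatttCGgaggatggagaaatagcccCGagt
DIO1 promoter, chr1:53893937-53894236, plus strand: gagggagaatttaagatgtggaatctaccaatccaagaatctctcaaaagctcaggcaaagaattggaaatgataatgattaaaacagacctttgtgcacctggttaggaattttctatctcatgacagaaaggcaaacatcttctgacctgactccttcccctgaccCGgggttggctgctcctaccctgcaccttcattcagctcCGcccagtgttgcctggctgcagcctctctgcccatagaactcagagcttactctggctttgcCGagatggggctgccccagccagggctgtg

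CG was found 32 times in the FOXE1 window, 13 times in that of PAX8, 10 times in that of TSHR and 3 times in that of DIO1, where the median over 35116 RefSeq promoters was 14. Among members not printed, HHEX had 44, SLC5A5 had 12, the 2 NKX2-1 windows had 21 and 11, and both DIO2 windows had 3. A promoter of TG was not used here. The letters CCAAT, searched on both strands, were found 2 times in the PAX8 window, 2 times in that of DIO1, and 1 time each in those of HHEX, SLC5A5 and 1 of the 2 NKX2-1 windows, and 34.6% of all promoters held them. TATAAA, held by 11.5% of promoters, was found in 1 DIO2 window. TGTTTA, a core of forkhead sites, and CTCAAG, a core of NKX2-1 sites, were each found in 1 NKX2-1 window only, against 12.3% and 12.4% of all promoters. The FOXE1 and TSHR windows held none of the 4 strings.

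The members fell into 4 groups by level. PAX8, FOXE1 and HHEX were well above the floor in all 12 libraries, TG was low but above it in all 12, and DIO1 and DIO2 had a few reads. NKX2-1, TSHR and SLC5A5 were at 0 in all 12. Per kilobase of exon and per 1000000 reads, the mean level over the 12 libraries was 58.2 for PAX8, above 94.7% of the 15879 tested genes with a length. On the same scale FOXE1 reached 2.46, HHEX 2.25, TG 0.0845, DIO1 0.0584 and DIO2 0.00901, beside a median of 5.51 over those genes. PAX8 was 23.7 times FOXE1 and 688 times TG per kilobase, while FOXE1 and HHEX differed by 1.09 times, so these 2 neighbours in the order were close.

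The 0 of the 3 absent members bounds their level. Over the estimated 193370000 reads of all libraries, 3 reads correspond to 0.0155 per 1000000, which allows up to 0.0049 per kilobase per 1000000 for NKX2-1, 0.00422 for SLC5A5 and 0.00157 for TSHR. NKX2-1 (ENSG00000136352, chromosome 14, 36516392 to 36521149, minus strand of GRCh38) is a homeobox factor of thyroid and lung. Its overlapping transcripts SFTA3 and NKX2-1-AS1 were also at 0 in all 12 libraries. TSHR (ENSG00000165409, chromosome 14, 80954989 to 81146306, plus strand) overlaps the first part of CEP128 on the other strand, which had 91 to 183 scaled reads. SLC5A5 (ENSG00000105641, chromosome 19, 17871945 to 17895174, plus strand) carries iodide into the cell. No fold change or test was made for these 3 genes.

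Of the 9 members, 4 reached the level needed for a test across genes, which was 1 per 1000000 in at least 3 libraries: PAX8, FOXE1, HHEX and TG. TG did so only through libraries of WB1 and TD5. A gene was called at a limma adjusted p under 0.05, over all 16027 tested genes, and a change of at least 1.5-fold. One member, FOXE1, was called in each clone, and it was lower each time. Of all tested genes, D11 had 1.95% called lower and 2.89% higher, WB1 1.59% and 3.39%, and TD5 1.48% and 1.12%, while 0.374% (60 genes) were called lower in all 3 clones. Calls in either direction made up 4.84% (D11), 4.99% (WB1) and 2.6% (TD5). The median log2 difference of the 4 tested members against TPC1 was −0.043 (D11), 0.078 (WB1) and 0.18 (TD5), beside 0.054, 0.058 and 0.00059 over all tested genes. These medians include TG, which passed the filter only through clone libraries, so no direction of the members is read from them.

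FOXE1 (ENSG00000178919, chromosome 9, 97853226 to 97856717, plus strand, a gene of 1 exon) is the forkhead factor whose loss in humans causes an absent thyroid. It had 316, 286 and 280 scaled reads in TPC1, 123, 136 and 171 in D11, 151, 132 and 112 in WB1, with 131, 93 and 128 in TD5. The highest clone library lay below the lowest TPC1 library, and the clones overlapped one another. How many of all tested genes separate in this way was not counted, so separation of libraries is a description here and below.

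FOXE1 fell in every clone. TPC1 had a mean of 294 ± 19.3 scaled reads (SD, n = 3), of which D11 kept 48.8%, WB1 44.8% and TD5 39.9%. On the scale of log2(value per 1000000 + 1) the difference was −0.95 in D11 (standard error 0.14, limma adjusted p = 0.000138). WB1 differed by −1.06 (adjusted p = 5.16e-05) and TD5 by −1.20 (adjusted p = 2.79e-05). In bulk RNA, fewer cells with FOXE1 transcripts and less FOXE1 RNA per cell cannot be told apart.

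Among the genes called lower, 112 of 312 had a larger fall than FOXE1 in D11, 50 of 255 in WB1 and 38 of 238 in TD5. FOXE1 was called in every clone under all 22 alternatives that kept the 1.5-fold minimum, including each fit without 1 library. With a 2-fold minimum it was not called in D11.

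Between clones, no difference of FOXE1 passed the test. TD5 differed from D11 by −0.25 (95% confidence interval −0.54 to 0.038, limma adjusted p = 0.194), WB1 from D11 by −0.10 (−0.39 to 0.19, adjusted p = 0.756) and TD5 from WB1 by −0.15 (−0.44 to 0.14, adjusted p = 0.497). Between clones, 3.99% of all tested genes were called in TD5 against D11, 2.85% in WB1 against D11 and 2.33% in TD5 against WB1, and none of the 4 tested members was among them. The mean of FOXE1 thus ran from TPC1 through D11 and WB1 to TD5, with only the step from TPC1 to the clones larger than the spread.

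The summed level of 8 epithelial markers was also lower in all 9 clone libraries (844 to 966 per 1000000) than in TPC1 (1066 to 1216), with none of them at 0 throughout. Keratins KRT8 and KRT18 made up nearly all of this sum, with means of 737 and 379 per 1000000 in TPC1, while EPCAM, CDH1, CLDN4, CLDN7 and KRT19 had 13 or fewer scaled reads in every library. Of the 8 markers 3 were tested by limma, and none was called in any clone. At an adjusted p under 0.05 and any fold, 2 were lower in each clone. Over all tested genes, 13.4% (D11), 12.3% (WB1) and 6.57% (TD5) were lower in this way. Of 6 endothelial markers, TEK alone exceeded 7 scaled reads, with a mean of 1.35 per 1000000 in TPC1, 0.716 (D11), 0.816 (WB1) and 0.983 (TD5). The part of KRT8, KRT18 and TEK in the FOXE1 result was not tested.

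**Figure D1:**
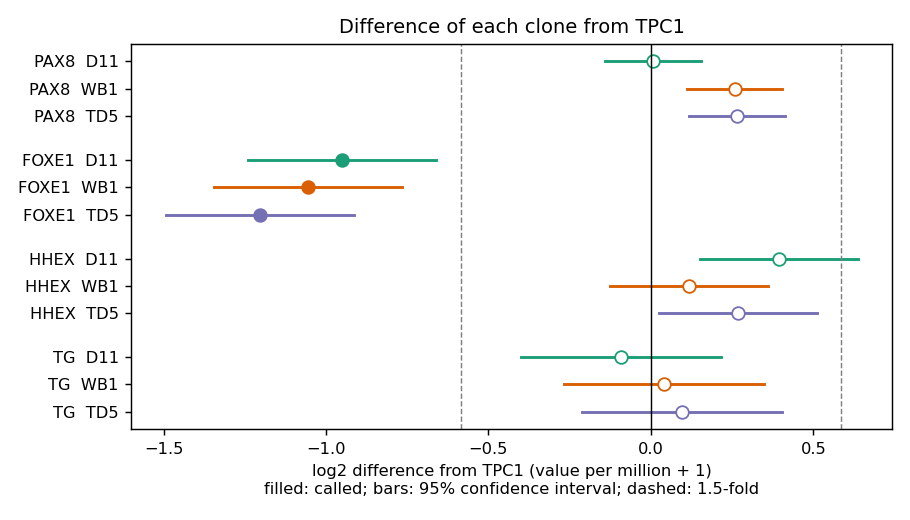
The log2 difference of each clone from TPC1, on the scale of log2(value per 1000000 + 1), for the 4 tested members, with 95% confidence intervals, filled circles for called genes and dashed lines at 1.5-fold. The 3 filled circles belong to FOXE1, at −0.95, −1.06 and −1.20, while the intervals of TG cross 0 in all 3 clones.

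The transcript beside FOXE1, PTCSC2, a noncoding RNA that starts 146 bases away on the other strand, was at 0 in 10 of the 12 libraries and at 2 scaled reads in 2 D11 libraries, under the floor. Its 300-base promoter window overlaps that of FOXE1. No statement on its change can be made at this depth.

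PAX8 (ENSG00000125618, chromosome 2, 113215997 to 113278921, minus strand), the paired-box factor needed for follicular cells to form, was the highest member in every library. It had 7603, 8549 and 7248 scaled reads in TPC1, 7826, 8088 and 7547 in D11, 8397, 9715 and 9879 in WB1, with 9753, 9387 and 8950 in TD5. All 3 TD5 libraries lay above all 3 TPC1 libraries, WB1 overlapped TPC1 in 1 library, and D11 lay within the TPC1 range.

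The log2 difference of PAX8 from TPC1 was 0.0065 in D11 (95% confidence interval −0.14 to 0.15, limma adjusted p = 0.953). It was 0.26 for WB1 (adjusted p = 0.0112) and 0.27 for TD5 (adjusted p = 0.0197). The levels in WB1 and TD5 were 120% of TPC1, under the 1.5-fold minimum, so PAX8 was not called. An adjusted p under 0.05 at any fold was found for 33.3% of tested genes with D11, 30.9% with WB1 and 11.9% with TD5. PAX8 also differed between clones, by 0.26 in TD5 against D11 (adjusted p = 0.0139, where 23.2% of genes passed at any fold) and by 0.25 in WB1 against D11 (adjusted p = 0.0331, where 8.07% did). These p-values were over 0.05 in 4 of 22 alternatives for WB1 and for TD5 against TPC1, in 2 for TD5 against D11 and in 7 for WB1 against D11. The libraries whose omission did so were TPC1 replicates 1 and 3, all 3 D11 replicates, WB1 replicates 2 and 3, and TD5 replicate 1.

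The antisense transcript PAX8-AS1 (chromosome 2, 113211421 to 113276581, plus strand) overlaps exons of PAX8, and it had 1186 to 2220 scaled reads. The library kit marked the strand, but the strand setting of the counting is not given in the sources used here, so reads of PAX8 and PAX8-AS1 may not be fully separated. PAX8-AS1 had 1186 to 1427 scaled reads in TPC1, 1580 to 1731 in D11, 1716 to 2220 in WB1 and 1732 to 1783 in TD5. All 9 clone libraries lay above the 3 TPC1 libraries, a split whose share over all tested genes was not counted.

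Its log2 difference from TPC1 was 0.57 in WB1 (limma adjusted p = 0.000244), 0.38 in TD5 (adjusted p = 0.00917) and 0.28 in D11 (adjusted p = 0.0217), each under 1.5-fold. PAX8-AS1 reached 1.5-fold in WB1 in 3 fits without 1 library, at 0.61 without TPC1 replicate 1 or 2 and 0.68 without WB1 replicate 1. Without TPC1 replicate 3 the adjusted p was 0.125 in D11 and 0.0614 in TD5, and in D11 it was also over 0.05 without D11 replicate 2 (0.0914), with length correction (0.0683) and with median-of-ratios scaling (0.0526). As a share of PAX8 in the same library it was 16.4% to 18.8% in TPC1, 20.4% to 21.4% in D11, 20.4% to 22.9% in WB1 and 18.3% to 19.4% in TD5. The share was higher in D11 and WB1 than in any TPC1 library, while TD5 overlapped TPC1.

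HHEX (ENSG00000152804, chromosome 10, 92689955 to 92695647, plus strand), a homeobox repressor of the early thyroid, liver and blood, had 102, 84 and 102 scaled reads in TPC1, 134, 129 and 133 in D11, 114, 95 and 108 in WB1, with 122, 103 and 135 in TD5. D11 and TD5 lay above TPC1 without overlap, TD5 by a single scaled read, and WB1 overlapped it. The log2 difference was 0.39 in D11 (95% confidence interval 0.15 to 0.64, limma adjusted p = 0.0161), 0.27 in TD5 (adjusted p = 0.142) and 0.12 in WB1 (adjusted p = 0.460). HHEX was not called in any clone, since D11 was 1.38 times TPC1. Without TPC1 replicate 2, without D11 replicate 3 or with no filter on low values, the D11 value had an adjusted p over 0.05.

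TG (ENSG00000042832, chromosome 8, 132866958 to 133134903, plus strand), the protein scaffold on which thyroid hormone is made, had 19, 18 and 18 scaled reads in TPC1, 17, 17 and 14 in D11, 27, 11 and 22 in WB1, with 23, 22 and 18 in TD5. D11 lay just below TPC1, and the spread within WB1 covered all other libraries. D11 differed from TPC1 by −0.092 (95% confidence interval −0.40 to 0.22, limma adjusted p = 0.650), WB1 by 0.040 (−0.27 to 0.35, adjusted p = 0.858) and TD5 by 0.095 (−0.21 to 0.40, adjusted p = 0.734). In all, 176 estimated reads fell on TG over the 12 libraries, and no difference was detectable at this depth. SLA, a gene within TG on the other strand, had 3 to 11 scaled reads.

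The deiodinases were at the floor. DIO1 (ENSG00000211452, chromosome 1, 53891239 to 53911086, plus strand), which removes an iodine from either ring of the hormone, had 3, 4 and 2 scaled reads in TPC1, 2 in each D11 library, 3 in each WB1 library, and 5, 0 and 3 in TD5, an estimated 21 reads in all. DIO2 (ENSG00000211448, chromosome 14, 80197526 to 80387757, minus strand), which makes the active hormone inside the cell, had 1, 3 and 2 in TPC1, 2, 0 and 2 in D11, 0 in all WB1 libraries, and 0, 2 and 4 in TD5, an estimated 10 reads in all.

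DIO1 overlapped TPC1 in every clone, and DIO2 did so in D11 and TD5. Exact two-sided permutation tests of the clones against TPC1 gave p = 0.4, 1 and 1 for DIO1 and 0.7, 0.1 and 1 for DIO2, in the order D11, WB1 and TD5 (n = 3 per line). The smallest p that 3 against 3 allows is 0.1, so these tests could not reach 0.05. Differences in the deiodinases were not detectable at this depth.

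Over all 4 lines, a moderated F test asked whether a member varied between lines at all. The adjusted p was 2.00e-05 for FOXE1, 0.00462 for PAX8, 0.0415 for HHEX and 0.683 for TG, and 44.6% of all tested genes passed at 0.05. Lines accounted for 90.3% of the variance of FOXE1 over the 12 libraries, 72.6% of that of PAX8, 69.2% of that of HHEX and 20.1% of that of TG. These shares were not set beside those of other genes. By the F test, 273 of 16027 tested genes had a smaller p than FOXE1, 2742 than PAX8, 6683 than HHEX and 14884 than TG. The HHEX value was over 0.05 in 11 of 21 alternatives. It was 0.118 with no filter on low values and 0.0525 with median-of-ratios scaling, and it ranged from 0.0223 to 0.117 over the 12 fits without 1 library, of which 9 were over 0.05. Those 9 left out any TPC1 or D11 replicate, WB1 replicate 2 or 3, or TD5 replicate 1.

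The genes most like each member were found by Pearson's r of log2 values over the 12 libraries, among 12242 tested genes averaging 5 per 1000000 or more. These libraries share 4 lines and their scaling, so r is a description. PAX8 was most like PADI3 (0.934), LIF (0.932) and KCNK3 (0.931), FOXE1 most like SLC35G2 (0.939), TPRG1L (0.938) and IRGQ (0.933), and HHEX most like PAICS (0.927), SFPQ (0.926) and MASTL (0.903). No other member was among these, and TG was too low for the comparison.

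The other genes of iodide handling and hormone synthesis were as sparse as the members. Of 13 such genes, 2 could be tested and none was called. IYD, which recovers iodide from spent precursors, and ANO1, a chloride channel that can pass iodide, were at 0 in all 12 libraries. DUOX1, a source of hydrogen peroxide, had 24, 26 and 24 scaled reads in TPC1, 32, 37 and 37 in D11, 39, 37 and 46 in WB1, with 26, 27 and 33 in TD5. Its log2 difference was 0.44 in WB1 (limma adjusted p = 0.0111), 0.31 in D11 (adjusted p = 0.0552) and 0.12 in TD5 (adjusted p = 0.560), none of them past the minimum on the log2(value per 1000000 + 1) scale. That scale understates changes of low genes, and the mean of WB1 was 165% of TPC1. CYBRD1, the other tested gene, differed by 0.28, 0.29 and 0.20, with adjusted p of 0.0996, 0.0854 and 0.322.

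SLC26A4 (pendrin, an apical iodide and chloride exchanger) was too low for the test and was named after its values were seen. It had 4, 3 and 5 scaled reads in TPC1, 21, 9 and 8 in D11, 12, 14 and 10 in WB1, with 15, 9 and 11 in TD5. All 9 clone libraries were above the 3 TPC1 libraries, which were at or near the floor of 3 reads. The share of all genes split in this way was not counted, so no change is read from it. Directions differed among the untested genes of this list. SLC26A7 also had a higher mean in every clone than in TPC1, while DUOXA1 and DUOXA2 had lower means in every clone.

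Thyroglobulin folding, uptake and proteolysis were represented by 14 genes, of which 12 were tested and 0 were called against TPC1 by limma. At an adjusted p under 0.05 and any fold, 1 was higher and 6 lower in D11, where 19.9% of all tested genes were higher and 13.4% lower. In WB1 2 were higher and 4 lower, beside 18.6% and 12.3% of all tested genes, and in TD5 1 was higher and 1 lower, beside 5.32% and 6.57%. The median log2 difference of the list was −0.19 (D11), −0.090 (WB1) and −0.074 (TD5), below the medians over all tested genes given above. CTSB, a lysosomal protease that can cut thyroglobulin, had 19417, 22939 and 19875 scaled reads in TPC1, 18316, 16916 and 17448 in D11, 28954, 22383 and 24482 in WB1, with 26835, 26887 and 26661 in TD5. It was called higher in TD5 than in D11, by 0.61 (limma adjusted p = 5.37e-05), and without D11 replicate 2 the difference was 0.58, under 1.5-fold.

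Of 20 genes that act after the thyrotropin receptor, 19 were tested, although the receptor itself was at 0. In D11 1 was called lower and 0 higher, in WB1 2 higher and 1 lower, and in TD5 1 lower and 0 higher. The list medians were 0.046, 0.016 and 0.018. Over all tested genes, 1.95% (D11), 1.59% (WB1) and 1.48% (TD5) were called lower, and 2.89%, 3.39% and 1.12% higher. At a limma adjusted p under 0.05 and any fold, D11 had 7 higher and 3 lower, beside 19.9% and 13.4% of all tested genes. WB1 had 8 higher and 4 lower, beside 18.6% and 12.3%, and TD5 0 and 2, beside 5.32% and 6.57%. RAPGEF3, an exchange factor for Rap proteins that cyclic AMP activates directly, had 2171, 1737 and 2036 scaled reads in TPC1, 1268, 1276 and 1292 in D11, 787, 1242 and 1008 in WB1, with 1278, 1381 and 1243 in TD5. No clone library reached the lowest TPC1 library, a split whose share over all tested genes was not counted. RAPGEF3 fell in WB1 (−0.97, limma adjusted p = 2.49e-05), D11 (−0.62, adjusted p = 0.00117) and TD5 (−0.60, adjusted p = 0.00298).

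The D11 and TD5 values of RAPGEF3 were close to the 1.5-fold minimum. The D11 call was lost without TPC1 replicate 1 (−0.55), and the TD5 call was lost without TPC1 replicate 1 (−0.53) or 3 (−0.57) and without TD5 replicate 1 (−0.58) or 3 (−0.56).

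PDE4D and PDE8B, phosphodiesterases that break down cyclic AMP, were called higher in WB1. PDE4D had 80, 73 and 62 scaled reads in TPC1 and 159, 118 and 128 in WB1, a difference of 0.75 (limma adjusted p = 0.0006). PDE8B had 22, 27 and 30 in TPC1 and 50, 61 and 43 in WB1, a difference of 0.62 (adjusted p = 0.00576). The libraries of the 2 lines did not overlap for either gene. Neither gene was called in D11 or TD5. PDE4D had 132, 105 and 112 in D11 and 109, 85 and 102 in TD5, also all above TPC1. Over all settings its limma adjusted p in D11 was 0.00214 to 0.0264, so the call was missed there only by the 1.5-fold minimum. PDE8B had 47, 31 and 38 in D11, above TPC1, and 35, 26 and 43 in TD5, which overlapped TPC1. The PDE8B call was lost without TPC1 replicate 1 (0.55) and without WB1 replicate 2 (0.52).

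Among 16 genes of hormone transport, receptors and targets, 11 were tested. In D11 0 were called by limma, with 2 higher and 2 lower at an adjusted p under 0.05 and any fold, beside the 19.9% and 13.4% of all tested genes given above. In WB1 0 were called higher and 2 lower, where 3.39% of all tested genes were called higher and 1.59% lower. In TD5 1 was called higher and 0 lower, beside 1.12% and 1.48%. The list medians were −0.025, −0.12 and 0.063 in D11, WB1 and TD5.

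SLC7A5 and SLC3A2, the light and heavy chains of a transporter of large amino acids that also carries thyroid hormone, fell in WB1. SLC7A5 had 29493, 27922 and 34470 scaled reads in TPC1 and 16396, 17360 and 17331 in WB1 (−0.84, limma adjusted p = 1.34e-06). SLC3A2 had 8970, 8424 and 10443 in TPC1 and 5358, 5222 and 5486 in WB1 (−0.79, adjusted p = 2.96e-06). In both genes the libraries of every clone lay below those of TPC1, a split whose share over all tested genes was not counted. The log2 difference of SLC7A5 was −0.35 in D11 (adjusted p = 0.00286) and −0.40 in TD5 (adjusted p = 0.00203), and that of SLC3A2 −0.39 in D11 (adjusted p = 0.00121) and −0.50 in TD5 (adjusted p = 0.000353), all under 1.5-fold.

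SLCO4A1, an organic anion transporter, was called higher in TD5, with 1859, 1784 and 1458 scaled reads against 791, 1043 and 744 in TPC1 (0.98, limma adjusted p = 0.000139). SLC16A10 (MCT10), a carrier of aromatic amino acids and thyroid hormone, had 62, 39 and 47 in TPC1 and 69, 85 and 89 in D11, a difference of 0.55 (adjusted p = 0.00623) that was not called on this scale, while the mean of D11 was 164% of TPC1. SLC16A10 was called in D11 with a pseudocount of 0.1 (0.71), by voom on estimated reads (0.72), without TPC1 replicate 1 (0.68) and without D11 replicate 1 (0.64), and with GC correction it was 0.30 (adjusted p = 0.102). It was called lower than D11 in TD5 (−0.78) and in WB1 (−0.71). The hormone receptors THRA (386 to 519 scaled reads over the 12 libraries) and THRB (597 to 916) were not called in any comparison.

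The 20 partners of the thyroid transcription factors gave 14 tested genes, of which 1 was called lower and 0 higher in each clone. Over all tested genes, 1.95% (D11), 1.59% (WB1) and 1.48% (TD5) were called lower. The list medians were 0.049, 0.068 and 0.16 for D11, WB1 and TD5. EYA1, a coactivator with phosphatase activity needed in the pharyngeal region, had 152, 144 and 110 scaled reads in TPC1, 66, 62 and 72 in D11, 191, 200 and 198 in WB1, with 183, 162 and 173 in TD5. D11 lay below TPC1 and the other clones above it.

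The difference of EYA1 was −0.83 in D11 (limma adjusted p = 8.09e-05), against 0.49 for WB1 (adjusted p = 0.00467) and 0.32 for TD5 (adjusted p = 0.0773). FOXA1, a forkhead factor of endoderm, had 125, 103 and 86 in TPC1, 55, 92 and 76 in D11, 44, 71 and 43 in WB1, with 51, 68 and 56 in TD5. FOXA1 fell in WB1 (−0.79, adjusted p = 0.00308) and TD5 (−0.66, adjusted p = 0.0182). The TD5 call of FOXA1 was lost without TPC1 replicate 1 (−0.55, adjusted p = 0.0892) and without TD5 replicate 1 (−0.60, adjusted p = 0.0729). GLIS3, a zinc finger factor required for thyroid hormone synthesis, had 788 to 1061 scaled reads and was not called.

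**Figure D2:**
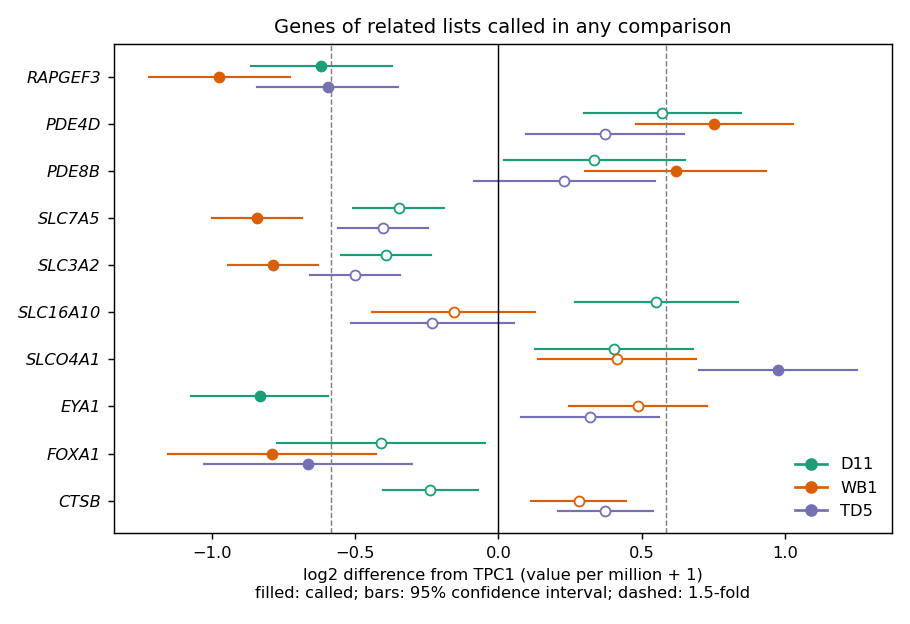
The log2 difference of each clone from TPC1, on the scale of log2(value per 1000000 + 1), with 95% confidence intervals, for the 10 genes of the related lists called in any of the 6 comparisons. Filled circles mark calls against TPC1 and dashed lines 1.5-fold, RAPGEF3 is filled in all 3 clones, and CTSB and SLC16A10 have no filled circle because they were called only between clones.

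Deiodinases contain selenocysteine, and all 8 genes of the selenocysteine machinery were tested. None was called by limma in any clone, and at an adjusted p under 0.05 and any fold D11 and WB1 each had 2 higher and 0 lower, and TD5 had 0 higher and 1 lower, where 33.3%, 30.9% and 11.9% of all tested genes passed in either direction. The list medians were −0.018, 0.018 and −0.013. For a thyroid differentiation score, 15 genes, which include 8 members, had 7 tested genes and 1 call in each clone, FOXE1, which is the call already counted above.

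Markers of other cell types were checked in the same libraries. Of the markers of thyroid follicular cells, PAX8, FOXE1, HHEX and, at a low level, TG were found. NKX2-1, TSHR and SLC5A5 were at 0, so only part of the list was detected. PAX8 and HHEX are also made in other tissues, so this list alone does not establish the labelled thyroid origin. Keratins KRT8 (10280 to 16274 scaled reads) and KRT18 (5237 to 7775) were high, while the epithelial adhesion genes EPCAM and CDH1 were at 5 or fewer. Markers of C cells summed to 1.25 to 2.10 per 1000000 and those of lung epithelium to 2.10 to 3.85, with CALCA and SFTPA1 at 0. CDH5, an endothelial cadherin, was at 0 as well.

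Of 8 kidney and Mullerian markers, tissues that also use PAX8, 5 were above the floor in any library. They summed to 12.9 to 14.9 per 1000000 in TPC1, 11.1 to 13.9 in D11, 11.9 to 15.3 in WB1 and 17.1 to 17.9 in TD5, with UMOD and MUC16 at 0. CDH16, a cadherin of kidney and thyroid, was called higher in TD5 (0.61, limma adjusted p = 0.0189). This call was lost without TPC1 replicate 1 (0.58, adjusted p = 0.0676), without TPC1 replicate 3 (0.58, adjusted p = 0.0743) and without TD5 replicate 1 (0.48, adjusted p = 0.0947).

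Of 8 fibroblast markers, 5 were above the floor, and they summed to 14.8 to 20.9 per 1000000 in TPC1, 9.19 to 11.5 in D11, 12.7 to 18.7 in WB1 and 10.5 to 13.2 in TD5, with DCN at 0. The sum thus was lower in D11 and TD5 than in TPC1. In WB1, where FOXE1 was also lower, the sum overlapped that of TPC1. The part of these markers in the FOXE1 result was not tested. LUM had 78, 73 and 63 scaled reads in TPC1, 0 in all D11 libraries, 138, 212 and 148 in WB1, with 2, 0 and 0 in TD5. PDGFRB and THY1 were called lower in WB1 (−1.41 and −0.64), and the THY1 call was lost without TPC1 replicate 1 (−0.48) and without WB1 replicate 3 (−0.57). The 7 immune markers summed to 46.2 to 57.8 per 1000000 in TPC1, 49.0 to 56.5 in D11, 62.8 to 75.9 in WB1 and 60.5 to 68.2 in TD5. Only 2 of them were above the floor, and CD3E was at 0. Of the 7, 1 reached the level needed for the test, so the sum rests mostly on 1 gene and does not stand for the list.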

How the data were processed

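RNA was measured in 12 libraries of 4 lines, grouped by the labels. Per the methods and labels, the authors prepared mRNA with a stranded kit, aligned the read pairs to GRCh38 by STAR 2.5.3a, counted reads per Ensembl gene with HTSeq 0.9.1 and scaled each library to 20000000 aligned reads. The deposited values are whole numbers on that scale, treated as a score and not as counts. Column sums of 20009833 to 20014191 and the steps between values gave the estimated reads per library.

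The quasi-likelihood method named by the study needs counts. Values per library sum were therefore fitted as log2(value per 1000000 + 1) by limma-trend (limma 3.58.1, R 4.3.3), estimating 1 mean for each line. Genes needed 1 per 1000000 in at least 3 libraries (16027 of 58302), and p-values were adjusted by the Benjamini-Hochberg method over all of them. Members under this filter were compared by exact permutation tests. The code was tested on simulated data.

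Members and lists were chosen with earlier results of these data known, and a few genes of the lists are not reported here. Named by rule were all members, genes of the other lists called in any of the 6 comparisons (at most 5 a list), DICER1 and the 3 genes most like each member. Some transcripts overlapping or beside a member were also named. Other genes of the lists were named outside this rule, such as DUOX1, CYBRD1, IYD, ANO1, SLC26A4, THRA, THRB, GLIS3, KRT8, KRT18 and TEK. Exon lengths and positions came from GENCODE 44 and promoters from RefSeq, both on GRCh38. Alternatives covered the filter, pseudocount, minimum fold, scaling, libraries in the fit, voom on estimated reads, corrections for GC content (known for 99.1% of tested genes) and length, a replicate block, and leaving out each library. Same-numbered libraries of TD5 and D11 deviated together (correlations 0.107, 0.172 and 0.348), which meets the limit for pairing. The values given for TD5 against D11 come from the fit without the replicate block, and the block was run as an alternative. The pairing comes from the data only, and the other pairs of lines did not meet the limit of 0.1 in all 3 numbers. Replicates within a line differed by 3.32 to 12.3 in chi-square per gene, so none was a repeated library. Other steps ran in Python 3.11.15 (pandas 2.3.3, numpy 2.4.6, matplotlib 3.10.9, scipy 1.17.1).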

Additional observations from a re-analysis of the deposited data

Results flagged for a closer look

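Several genes differed between clones by a test of that difference itself, each an effect against TPC1 that was unequal between 2 clones, on the scale of log2(value per 1000000 + 1) with a limma adjusted p under 0.05. Among the members this held for PAX8, which was higher by 0.26 in TD5 and by 0.25 in WB1 than in D11. Of the transcription factor partners, EYA1 was higher by 1.15 in TD5 and by 1.32 in WB1 than in D11, the widest gap among the named genes of the related lists other than cell type markers.

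Of the genes around hormone transport, SLC16A10 differed from D11 by −0.78 in TD5 and by −0.71 in WB1. For SLC7A5, WB1 differed from D11 by −0.49 and TD5 was higher than WB1 by 0.44. For SLC3A2 the same differences were −0.39 and 0.29, the second with an adjusted p over 0.05 in 4 of 22 alternatives (no filter, 0.0514, and without WB1 replicate 1, 0.0595, WB1 replicate 2, 0.0764, or TD5 replicate 2, 0.0951). SLCO4A1 was higher in TD5 than in D11 by 0.57 and than in WB1 by 0.56, the second with 0.0638 without WB1 replicate 1. CTSB was higher than in D11 by 0.61 in TD5 and by 0.52 in WB1, and RAPGEF3 was higher in TD5 than in WB1 by 0.38. The RAPGEF3 value was over 0.05 in 11 of 22 alternatives, 7 of them fits without 1 library (any D11 replicate, WB1 replicate 1 or 3, TD5 replicate 1 or 2), up to 0.199 without WB1 replicate 1. With a pseudocount of 4, SLC16A10 was −0.44 in TD5 and −0.40 in WB1 against D11, and with GC correction −0.57 in TD5, all under 1.5-fold.

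DICER1 in TD5 differed from D11 by −0.58 and from WB1 by −0.34. The difference from WB1 had an adjusted p over 0.05 in 9 of 22 alternatives, 4 of them fits without 1 library (WB1 replicate 1 or 2, TD5 replicate 1 or 2), up to 0.128 without WB1 replicate 2. Of the marker genes, CDH16 was higher in TD5 by 0.95 than in D11 and by 0.64 than in WB1. The call of CDH16 against WB1 was lost in 5 of 21 alternatives, without WB1 replicate 1 (adjusted p = 0.058), without TD5 replicate 1 (0.062), with no filter (0.0582), and under 1.5-fold with GC correction (0.57) and a pseudocount of 4 (0.38), which also lost that against D11 (0.54). PDGFRB in WB1 differed from D11 by −0.95, and TD5 was higher than WB1 by 1.35. With a pseudocount of 4 the PDGFRB difference of WB1 from D11 was −0.57, under 1.5-fold. THY1 was higher in TD5 than in WB1 by 0.61, a call lost in 7 of 21 alternatives. The adjusted p of THY1 was 0.0858, 0.0698 and 0.0869 without WB1 replicate 1, 2 or 3, 0.102 and 0.131 without TD5 replicate 1 or 2, and 0.091 with no filter, and with a pseudocount of 4 the difference was 0.26. LUM had 138 to 212 scaled reads in WB1 and 2 or fewer in the libraries of D11 and TD5. Its fitted differences of 3.20 (WB1 against D11) and −3.15 (TD5 against WB1) depend on the pseudocount and are not bounds.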

How the results depend on the processing

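Of the thyroid genes called (1 in each clone against TPC1 and 0 between clones), no alternative in the filter, pseudocount, scaling, fit, voom, GC or length correction changed the number, nor did leaving out any single library. With no minimum fold, 2 thyroid genes passed in D11, WB1 and TD5 against TPC1, 1 in TD5 against D11, 1 in WB1 against D11 and 0 in TD5 against WB1, and with a 2-fold minimum 0 passed in D11. FOXE1 ranged from −1.07 to −0.75 in D11, −1.18 to −0.82 in WB1 and −1.35 to −0.93 in TD5. PAX8 had an adjusted p over 0.05 in WB1 with median-of-ratios scaling, length correction, or without TPC1 replicate 3 or WB1 replicate 2. In TD5 this happened with no filter or without TPC1 replicate 1 or 3 or TD5 replicate 1. Changes of sign, all of values that were not called, occurred in these cases. PAX8 in D11 was −0.053 with median-of-ratios scaling and −0.060 with length correction, and PAX8 in TD5 against WB1 was −0.012 with GC correction. TG in WB1 was −0.012 with length correction, and CDH16 in WB1 was 0.066 and THY1 in TD5 0.0042 with GC correction. Over fits without 1 library, PAX8 ranged from −0.045 to 0.074 in D11 and from −0.066 to 0.051 in TD5 against WB1. TG ranged from −0.087 to 0.21 in WB1 and from −0.12 to 0.18 in TD5 against WB1, and FOXE1 from −0.19 to 0.014 in WB1 against D11. CDH16 ranged from −0.064 to 0.034 in WB1, and in TD5 PDGFRB from −0.27 to 0.072 and THY1 from −0.21 to 0.13. Of the calls of related genes against TPC1, a pseudocount of 4 lost EYA1 (D11), PDE4D, PDE8B and THY1 (WB1), FOXA1 (WB1 and TD5), RAPGEF3 and CDH16 (TD5). GC correction lost RAPGEF3 (D11 and TD5), PDE4D and PDE8B, length correction PDE8B, median-of-ratios scaling PDE8B, and no filter FOXA1 and CDH16 (TD5). With the replicate block, all genes called numbered 772 in D11, 799 in WB1 and 409 in TD5 against TPC1, and 638 in TD5 against D11, 449 in WB1 against D11 and 369 in TD5 against WB1, and it changed no call of a thyroid gene. In the same order, all genes called were 775, 799, 417, 640, 456 and 373 as reported. They were 5329, 4956, 1906, 3721, 1293 and 2186 with no minimum fold, 134, 128, 101, 138, 145 and 76 with a 2-fold minimum, and 295, 339, 180, 283, 213 and 140 with a pseudocount of 4. A filter at 5 per 1000000 gave 514, 523 and 272 against TPC1, 280 in WB1 against D11 and 231 in TD5 against WB1. A pseudocount of 0.1 gave 1188 in D11, 1233 in WB1, 987 in TD5 against D11 and 569 in TD5 against WB1. Voom gave 1175 in D11, 1273 in WB1 and 976 in TD5 against D11. Differences of TG, DIO1 and DIO2 were not detectable at this depth, and NKX2-1, TSHR and SLC5A5, at 0, were not tested. No scaling moved the median of all genes by over 0.1.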
